A study of Mus musculus with 6 samples.

Results

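The 35 genes described here run or hold back the cell division cycle. They comprise 13 genes of mitosis, 12 of DNA replication, 6 of G1 and the entry into S phase, and 4 of cell cycle arrest and the p53 pathway. They were picked by name out of the 25184 genes of the count table, and each of the 35 matched 1 gene identifier.

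A resting cell re-enters the cycle when D-type and E-type cyclins, with their kinases, release the E2F transcription factors from the retinoblastoma proteins. E2F then switches on the genes that license and copy DNA, and later the genes of mitosis are transcribed through CCAAT boxes and a cell cycle element called CHR. The p53 protein works in the other direction: under stress it induces the CDK inhibitor *Cdkn1a*, and it also induces *Mdm2*, which targets p53 itself for degradation. Adult hepatocytes are mostly quiescent, and their isolation and plating are known to move them from rest toward G1.

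Gene expression was measured by RNA sequencing in primary hepatocytes of 3 *Sucnr1* fl/fl mice and 3 Hep-*Sucnr1* KO mice, all fed chow. The *Alb*-Cre line had a C57BL6J background, and the study states none for the floxed line. Both groups are homozygous for floxed *Sucnr1*, which encodes the receptor for succinate. The controls have no Cre (*Alb*-Cre-/-), while Hep-*Sucnr1* KO mice carry Cre under the albumin promoter (*Alb*-Cre+/-), so the deletion depends on cells that express albumin, and a control with Cre but without floxed alleles was not analysed here. The cells came from the left lateral lobe by enzymatic digestion and a density gradient, and stayed overnight on collagen in attachment medium before lysis. The age and sex of these mice are not given in the sources used here. Extraction took place on 2 days, and the sources used here do not say whether cells or RNA were extracted. *Sucnr1* fl/fl replicate 1 and Hep-*Sucnr1* KO replicate 3 were of day 1. *Sucnr1* fl/fl replicates 2 and 3 and Hep-*Sucnr1* KO replicates 4 and 5 were of day 2. In the following, values by library are in the order *Sucnr1* fl/fl 1, 2 and 3, then Hep-*Sucnr1* KO 3, 4 and 5.

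The libraries held between 30504248 and 38770694 counts, and 1 count equalled between 0.0260 and 0.0330 CPM, the counts scaled to library totals with TMM factors. *Sucnr1* stood at 6.71, 3.55 and 3.39 CPM in *Sucnr1* fl/fl and at 2.66, 0.827 and 0.152 CPM in Hep-*Sucnr1* KO, without overlap. Its log2 fold change was -2.23 ± 0.54 (SE), with an adjusted p of 0.998 in edgeR's quasi-likelihood test and of 0.0316 in DESeq2. The 10 hepatocyte markers summed to between 81017 and 120907 CPM in every library. Markers of other liver cells were also present, and 10 Kupffer cell and macrophage markers summed to 77.0, 52.8 and 163 CPM in *Sucnr1* fl/fl and to 36.3, 130.1 and 115 CPM in Hep-*Sucnr1* KO. In such bulk libraries, fewer cells of a type and less RNA per cell cannot be told apart.

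Levels of the 35 genes spanned a wide range. Compared per kilobase of exon (RPKM), the arrest genes *Mdm2* and *Cdkn1a* stood at the top. *Mdm2*, the ubiquitin ligase of p53, had a mean RPKM of 61.1 and rank 674 among the 15105 genes tested. *Cdkn1a*, which encodes the inhibitor p21, had 53 and rank 763. *Pcna*, the sliding clamp of DNA polymerases, followed with a mean RPKM of 7.14 and rank 3801. *Ccng1*, a cyclin induced by p53, had 5.85, and *Cdkn1b*, which encodes the inhibitor p27, had 5.61. The D-type cyclins lay lower on this scale, with 1.75 for *Ccnd3*, 1.66 for *Ccnd1* and 0.259 for *Ccnd2*. Mitosis genes lay low in the range, as did several replication genes: *Ccnb2* was the highest of the 13 with a mean RPKM of 0.754, *Mki67* had 0.217 and rank 12805, and *Foxm1* had 0.0594 and rank 14516, next to the replication gene *Cdc6* with 0.0598 and rank 14513. The arrest genes *Cdkn1a* and *Mdm2* were thus expressed far above any mitosis gene in each of the 6 libraries.

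**Figure D1:**
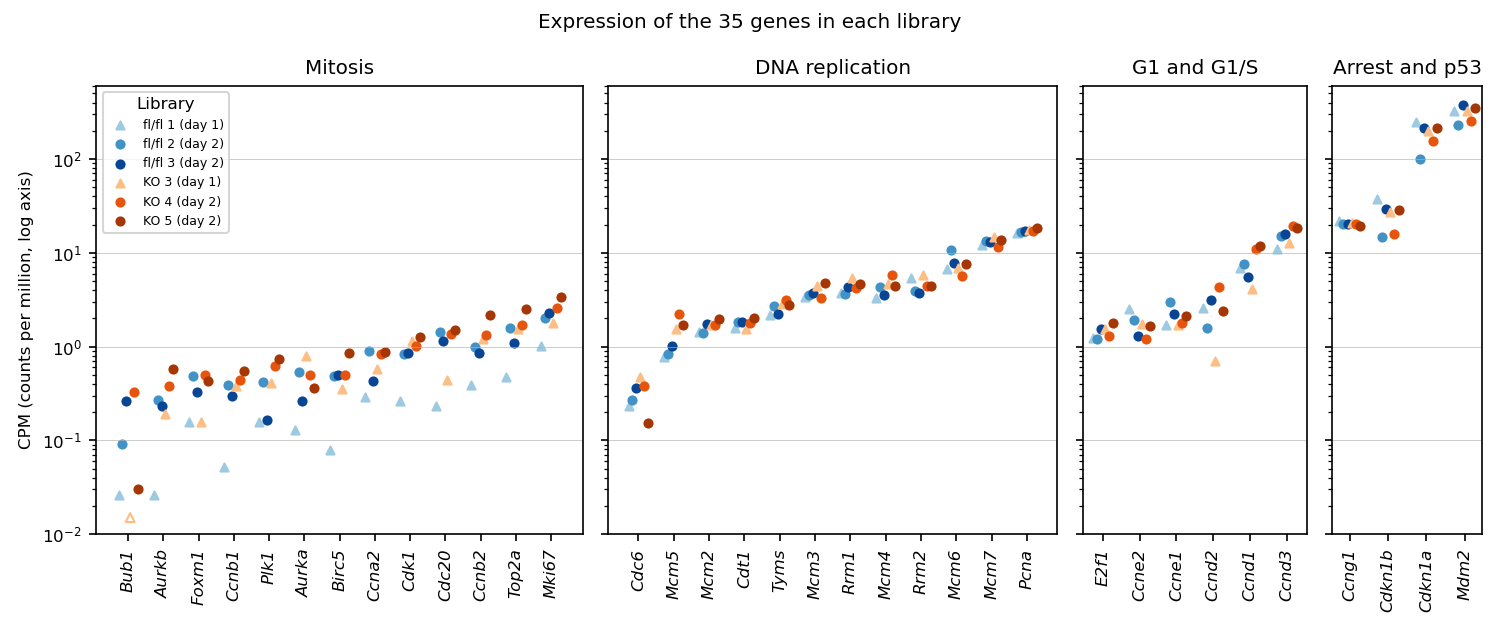
Expression of the 35 genes in each library, in CPM on a log axis, by role and sorted by mean level. Points are single libraries (blue, *Sucnr1* fl/fl; orange, Hep-*Sucnr1* KO; triangles, extraction day 1; circles, day 2), and the open triangle for *Bub1* stands for a count of 0. In the mitosis panel the light blue triangle of *Sucnr1* fl/fl 1 lies lowest for all 12 genes that were tested, whereas in the arrest panel *Mdm2* and *Cdkn1a* lie above 100 CPM.

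The genotype comparison asks which of these genes differ between hepatocytes of Hep-*Sucnr1* KO and of control mice. Hep-*Sucnr1* KO 3 still held 84 counts of *Sucnr1*, against 103 in *Sucnr1* fl/fl 3. Of the 35, 34 had a mean normalized count above 5 and were tested, and *Bub1* was not. None of the 34 passed a false discovery rate of 0.05 in edgeR, where the adjusted p of each was 0.998. DESeq2 called none of them either, but gave no adjusted p for 17 and so could not call those. Among the mitosis genes tested, only *Mki67* had an adjusted p in DESeq2. Over all 15105 genes, edgeR called 0 (0%) and DESeq2 called 7 (0.0463%). At an unadjusted p under 0.05, edgeR gave 6 members, all higher in Hep-*Sucnr1* KO, where 3.73% of all genes passed that limit, 1.91% higher and 1.81% lower. DESeq2 gave 3 members at that limit, *Top2a*, *Ccnb2* and *Mcm5*, against 2.88% of all genes. All 3 were among those without an adjusted p in DESeq2. Log2 fold changes were above 0 for 27 of the 34, with a median of 0.24, and above 0 for 50.5% of all genes. Every Hep-*Sucnr1* KO library stood above every *Sucnr1* fl/fl library for 6 of the 34 (*Ccnb2*, *Cdk1*, *Mcm4*, *Mcm5*, *Pcna* and *Tyms*), below for none, and the groups overlapped for 28. Over all genes, 6.55% were without overlap in the upward and 4.04% in the downward direction.

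The 4 roles differed in the size of these values. Median log2 fold changes were 0.88 for the 12 mitosis genes tested, 0.21 for the 12 replication genes, 0.01 for the 6 genes of G1 and -0.03 for the 4 arrest genes, while the median over all genes was 0.003. Log2 fold changes were above 0 for 12 of 12 mitosis genes, 11 of 12 replication genes, 3 of 6 G1 genes and 1 of 4 arrest genes. The median of the G1 genes turned below 0 with DESeq2, with its size factors, with library size alone and with other filters, at -0.03 in DESeq2. Single libraries turned it as well: it was -0.08 without *Sucnr1* fl/fl 3, -0.01 without Hep-*Sucnr1* KO 5 and -0.00317 without *Sucnr1* fl/fl 2. It stood at 0.21 without *Sucnr1* fl/fl 1 and 0.20 without Hep-*Sucnr1* KO 3, fits that both rest on the day 2 libraries. The arrest median turned to 0.16 without *Sucnr1* fl/fl 3 and to 0.06 without Hep-*Sucnr1* KO 4.

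**Figure D2:**
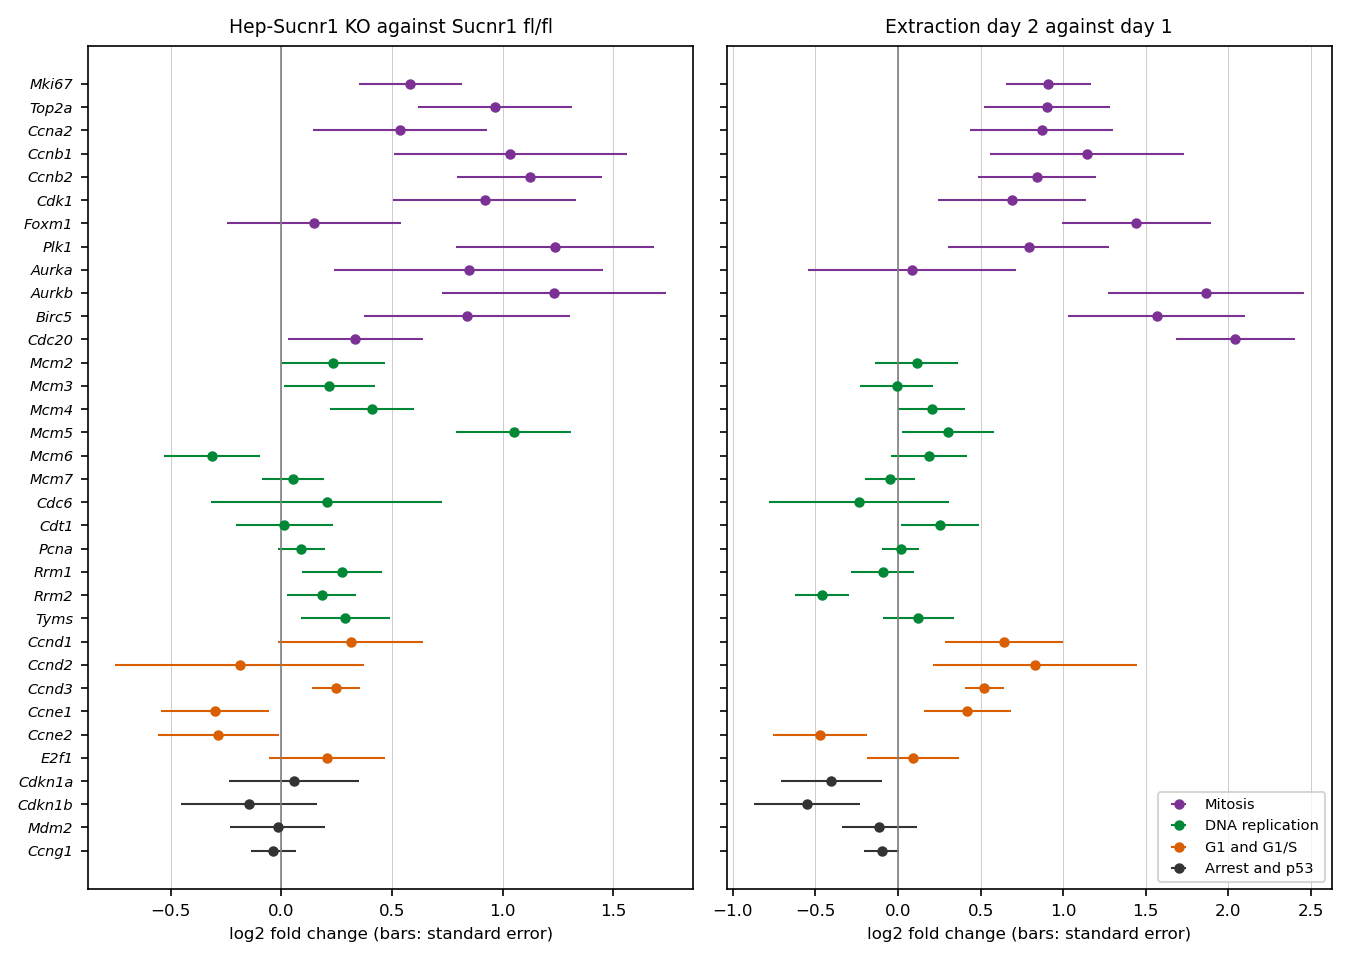
Log2 fold changes of the 34 tested genes with their standard errors, for Hep-*Sucnr1* KO against *Sucnr1* fl/fl (left) and for extraction day 2 against day 1 (right), coloured by role. All 12 mitosis genes lie to the right of 0 in both panels, and the 4 arrest genes lie close to 0 on the left, between -0.14 and 0.06.

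Mitosis genes were higher in Hep-*Sucnr1* KO by value, and their values were smaller once *Sucnr1* fl/fl 1 was left out. Summed over the 13 genes, they reached 3.28, 10.5 and 8.70 CPM in *Sucnr1* fl/fl against 8.96, 12.1 and 15.2 CPM in Hep-*Sucnr1* KO. The sums of the 2 groups overlapped, because *Sucnr1* fl/fl 2 lay above Hep-*Sucnr1* KO 3. *Sucnr1* fl/fl 1 was the lowest of the 6 libraries for 12 of the 12 genes tested, whereas it was the lowest for 20.4% of all genes. For *Foxm1* and *Plk1* this was a near tie, at 0.156 CPM in *Sucnr1* fl/fl 1. *Foxm1* had 0.158 CPM in Hep-*Sucnr1* KO 3, and *Plk1* had 0.165 CPM in *Sucnr1* fl/fl 3. Hep-*Sucnr1* KO 5 was the highest for 9 of the 12. *Sucnr1* fl/fl 1 is also the deepest library, with 38770694 counts, and its 126 counts over the 13 genes compare with 264 to 502 in the other libraries. Markers of other liver cells stood apart in the same library: it was the highest for 10 of 10 sinusoidal endothelial markers, which summed to 110.04 CPM against 40.7 to 72.4 CPM elsewhere, and for 7 of 7 tested stellate cell markers, at 34.8 CPM against 8.09 to 14.6 CPM. Their part in the mitosis values was not tested. Without *Sucnr1* fl/fl 1 the median log2 fold change of the mitosis genes was 0.47, with 12 of 12 above 0 and no gene at an unadjusted p under 0.05, against 5 with all libraries. The same median of 0.47 and count of 0 resulted without Hep-*Sucnr1* KO 3, the other library of day 1. This is not a separate result, because day 1 holds 1 library per genotype. With the day term, leaving out either of them makes the genotype value rest on the day 2 libraries alone. Without Hep-*Sucnr1* KO 5 the median was 0.93, also with a count of 0, and without *Sucnr1* fl/fl 3 it was 0.92, with a count of 1.

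The proliferation antigen *Mki67*, which marks cells in any phase of the active cycle, had the highest CPM of the mitosis genes. It stood at 1.01, 2.01 and 2.27 CPM in *Sucnr1* fl/fl and at 1.77, 2.60 and 3.40 CPM in Hep-*Sucnr1* KO. Both libraries of extraction day 1 were the lowest of their group, and the groups overlapped. The log2 fold change was 0.58 ± 0.23 (SE), with a 95% interval of 0.03 to 1.13 and an unadjusted p of 0.0411. *Top2a*, the topoisomerase that untangles replicated chromosomes, stood at 0.468, 1.59 and 1.09 CPM in *Sucnr1* fl/fl and at 1.55, 1.71 and 2.49 CPM in Hep-*Sucnr1* KO. Its log2 fold change was 0.97 ± 0.35 (SE), and the groups overlapped only through *Sucnr1* fl/fl 2 and Hep-*Sucnr1* KO 3.

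The B-type cyclins bind *Cdk1*, the kinase that drives entry into mitosis. *Ccnb2* stood at 0.390, 0.992 and 0.857 CPM in *Sucnr1* fl/fl and at 1.20, 1.33 and 2.15 CPM in Hep-*Sucnr1* KO. All 3 Hep-*Sucnr1* KO libraries were above all 3 controls, with a log2 fold change of 1.12 ± 0.33 (SE) and a two-sided exact permutation p of 0.1, the smallest that 3 against 3 allows. *Cdk1* stood at 0.260, 0.842 and 0.857 CPM in *Sucnr1* fl/fl and at 1.14, 1.00 and 1.27 CPM in Hep-*Sucnr1* KO. Its groups did not overlap either, at a log2 fold change of 0.92 ± 0.41 (SE) and an unadjusted p of 0.0623. Values of *Ccnb2* and *Cdk1* in every library are given because their groups did not overlap, a choice made after the values were seen. The partner cyclins *Ccna2* and *Ccnb1* had log2 fold changes of 0.54 ± 0.39 and 1.04 ± 0.53 (SE), and both had overlapping groups.

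*Plk1*, the polo-like kinase of mitotic entry and spindle assembly, had the largest log2 fold change of the 34, at 1.24 ± 0.45 (SE) with an interval of 0.17 to 2.30. It rested on few counts, 6, 14 and 5 in *Sucnr1* fl/fl against 13, 21 and 24 in Hep-*Sucnr1* KO. In CPM these were 0.156, 0.421 and 0.165 against 0.411, 0.620 and 0.728. *Sucnr1* fl/fl 2 and Hep-*Sucnr1* KO 3 were nearly level, so the groups overlapped by a narrow margin. The Aurora kinases *Aurka* and *Aurkb*, which act at spindle poles and at chromosome passengers, had log2 fold changes of 0.85 ± 0.61 and 1.23 ± 0.51 (SE). That of *Aurka* was 0.10 without *Sucnr1* fl/fl 1 and 0.08 without Hep-*Sucnr1* KO 3, which both rest on the day 2 libraries. Without *Sucnr1* fl/fl 2 that of *Aurka* was 1.52. For *Aurkb*, *Sucnr1* fl/fl 1 held a single count (1) and the other libraries 6 to 19. Its partner *Birc5*, the survivin subunit of the passenger complex, had 0.84 ± 0.47 (SE).

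The remaining mitosis genes showed smaller genotype values. *Foxm1*, the transcription factor of late cycle genes, had a log2 fold change of 0.15 ± 0.39 (SE), which turned to -0.03 without *Sucnr1* fl/fl 3. *Cdc20*, the activator of the anaphase-promoting complex, had 0.33 ± 0.30 (SE). *Bub1*, the checkpoint kinase that was not tested, had 1, 3 and 8 counts in *Sucnr1* fl/fl against 0, 11 and 1 in Hep-*Sucnr1* KO. The count of 0 in Hep-*Sucnr1* KO 3 allows a level of up to 0.0949 CPM, for counting error alone, so a difference was not detectable at this depth.

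The DNA in front of the mitosis genes was searched for CCAAT boxes and CHR elements, motifs already known for genes of this class. Matches were therefore likely beforehand. A promoter window in the RefSeq tables (GRCm38.p6), 250 bases before to 50 bases after a start, was found for 28 of the 35 genes, as 31 windows. Among 10 windows of mitosis genes, 9 held a CCAAT box (CCAAT on either strand) and 9 held a CHR (TTTGAA or TTTAAA on either strand). Over all 32851 windows these shares were 37.41% and 27.59%. At least 2 CCAAT boxes stood in 8 of the 10 windows, against 11.7% of all windows. The 250 bases before the start are shown for *Ccnb2* (chr9:70421555-70421804, minus strand) and *Plk1* (chr7:122159185-122159434, plus strand), the mitosis gene without overlap that had the larger fold change and the one with the largest fold change of all, with CCAAT boxes and CHR elements in capitals.
Ccnb2: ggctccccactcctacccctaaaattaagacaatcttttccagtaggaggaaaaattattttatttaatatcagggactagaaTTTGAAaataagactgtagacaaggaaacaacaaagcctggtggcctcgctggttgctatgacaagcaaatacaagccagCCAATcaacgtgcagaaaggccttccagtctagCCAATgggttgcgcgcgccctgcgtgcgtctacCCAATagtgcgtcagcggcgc
Plk1: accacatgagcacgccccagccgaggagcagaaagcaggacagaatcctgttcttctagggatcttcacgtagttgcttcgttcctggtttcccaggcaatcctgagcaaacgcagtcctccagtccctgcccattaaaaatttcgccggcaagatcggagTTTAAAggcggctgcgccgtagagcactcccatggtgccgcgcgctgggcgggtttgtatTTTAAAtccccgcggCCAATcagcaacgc
*Ccnb2* holds 3 CCAAT boxes, which begin 87, 54 and 21 bases before the start, and a CHR at 167 bases. *Plk1* holds 1 CCAAT box at 14 bases and CHR elements at 89 and 29 bases. Beyond the bases shown, a further CHR begins 4 bases after the start in *Ccnb2* and 30 bases after it in *Plk1*. A match describes these letters only, and binding was not measured.

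DNA replication genes had small genotype values apart from *Mcm5*. Summed over the 12 genes, they reached 57.1, 63.3 and 60.1 CPM in *Sucnr1* fl/fl against 67.6, 61.0 and 66.3 CPM in Hep-*Sucnr1* KO. The range over the 6 libraries was narrower than for the mitosis genes, and the groups overlapped. *Pcna* made up the largest part, with 16.3, 16.6 and 16.9 CPM in *Sucnr1* fl/fl against 17.7, 17.0 and 18.3 CPM in Hep-*Sucnr1* KO. Its groups did not overlap, but the log2 fold change was 0.09 ± 0.11 (SE), with an interval of -0.16 to 0.34. The highest library of *Pcna* was 1.12 times the lowest, while for *Mki67* this ratio was 3.35.

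The *Mcm2* to *Mcm7* proteins form the ring that unwinds DNA at the replication fork. *Mcm5* stood at 0.780, 0.842 and 1.02 CPM in *Sucnr1* fl/fl and at 1.55, 2.24 and 1.70 CPM in Hep-*Sucnr1* KO. Every Hep-*Sucnr1* KO library was above every control, on both extraction days: the difference in log2 CPM was 0.94 on day 1 and 1.03 on day 2. The log2 fold change was 1.05 ± 0.26 (SE), with an interval of 0.43 to 1.67, an unadjusted p of 0.00534, an adjusted p of 0.998 in edgeR and a two-sided exact permutation p of 0.1. It lay between 0.92 and 1.15 when each library was left out in turn. The other 5 subunits did not share this size: *Mcm4* had 0.41 ± 0.19 (SE), *Mcm2* had 0.23, *Mcm3* had 0.22, *Mcm7* had 0.05 and *Mcm6* had -0.31 ± 0.22 (SE). *Mcm4* stood at 3.30, 4.30 and 3.56 CPM in *Sucnr1* fl/fl and at 4.59, 5.76 and 4.46 CPM in Hep-*Sucnr1* KO, also without overlap, for which it is named after its values were seen.

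Licensing and nucleotide supply genes overlapped between the groups, except *Tyms*. The loading factors *Cdc6* and *Cdt1* had log2 fold changes of 0.20 ± 0.52 and 0.01 ± 0.22 (SE), and *Cdt1* turned to -0.01 with DESeq2 and to -0.02 with library size alone. *Rrm1* and *Rrm2*, the subunits of ribonucleotide reductase, had 0.27 ± 0.18 and 0.18 ± 0.16 (SE). *Tyms*, which makes thymidylate, had 0.29 ± 0.20 (SE), with 2.18 to 2.71 CPM in *Sucnr1* fl/fl against 2.79 to 3.10 CPM in Hep-*Sucnr1* KO. Their intervals included 0, and that of *Tyms* ran from -0.19 to 0.77.

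Promoters of replication genes held E2F sites more often than CHR elements. E2F is a known regulator of such genes, so these matches were also likely beforehand. An E2F site (TTTCCCGC, TTTCGCGC, TTTGCCGC or TTTGGCGC on either strand) stood in 6 of 12 replication windows and in 1 of 10 mitosis windows, against 2.265% of all windows. A CHR stood in 3 of the 12 and a CCAAT box in 9. The 250 bases before the start of *Mcm5* (chr8:75109259-75109508, plus strand) are shown because this gene had the smallest p of the 34, with E2F, CCAAT and CHR matches in capitals.
Mcm5: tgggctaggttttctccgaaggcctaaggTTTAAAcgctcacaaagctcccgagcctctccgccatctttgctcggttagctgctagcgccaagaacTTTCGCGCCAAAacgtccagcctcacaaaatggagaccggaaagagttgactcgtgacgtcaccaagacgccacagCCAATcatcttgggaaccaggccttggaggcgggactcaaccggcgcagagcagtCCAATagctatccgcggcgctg
The capitals mark a pair of E2F matches on opposite strands that overlap, at 153 and 149 bases before the start, CCAAT boxes at 77 and 22 bases and a CHR at 221 bases. One run of capitals, at 153 bases, thus holds both E2F matches. Beyond the bases shown, a further CCAAT box begins 6 bases after the start.

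**Figure D3:**
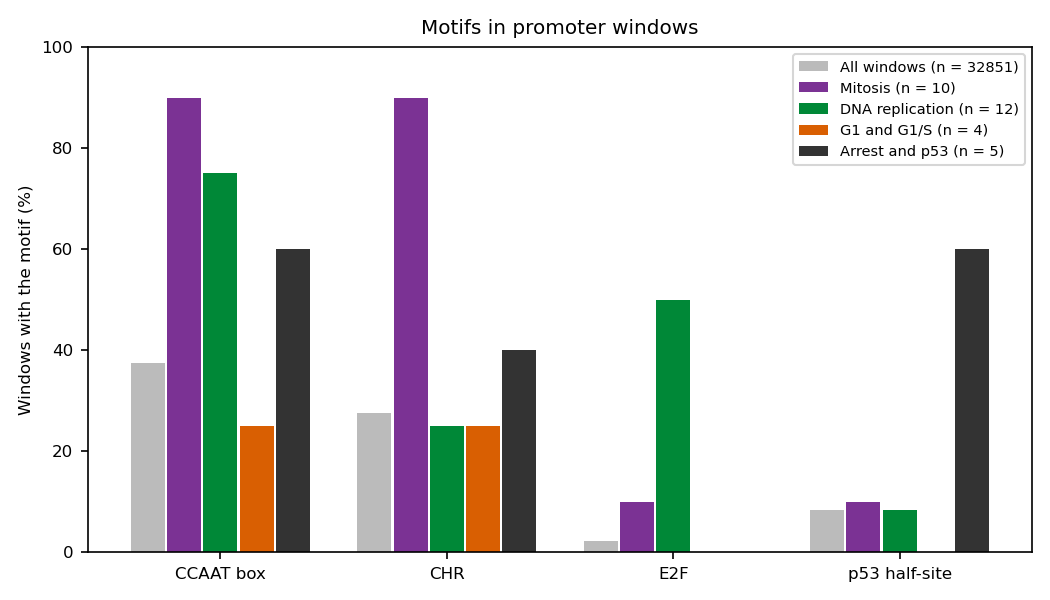
Share of promoter windows (%) that hold each motif, for all 32851 RefSeq windows (grey) and for the windows of each role. CCAAT and CHR bars of mitosis genes reach 90%, the E2F bar is tallest for DNA replication at 50%, and the p53 half-site bar is tallest for arrest and p53 at 60%. The motifs were searched because they are known for genes of these roles.

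The genes of G1 showed no common direction by genotype. *Ccnd3*, a D-type cyclin, had the highest CPM of the 6 genes, with 11.0, 15.2 and 16.02 CPM in *Sucnr1* fl/fl against 12.8, 19.1 and 18.3 CPM in Hep-*Sucnr1* KO. Both day 1 libraries were the lowest of their group, and the genotypes overlapped. Its log2 fold change was 0.25 ± 0.11 (SE), with an unadjusted p of 0.056. *Ccne1* and *Ccne2*, the E-type cyclins of S phase entry, were lower by value at -0.30 ± 0.24 and -0.28 ± 0.27 (SE). The factor *E2f1* had 0.21 ± 0.26 (SE). All 6 genes had overlapping groups.

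*Ccnd1*, the D-type cyclin best known from liver regeneration, had genotype values of opposite sign on the 2 days. It stood at 6.81, 7.55 and 5.50 CPM in *Sucnr1* fl/fl and at 4.08, 11.0 and 11.9 CPM in Hep-*Sucnr1* KO. The day 1 library of Hep-*Sucnr1* KO was the lowest of all 6 and the day 2 libraries the highest. The difference in log2 CPM was -0.73 on day 1 and 0.82 on day 2, and the interaction of genotype and day was 1.54 ± 0.39 (SE), with an unadjusted p of 0.00773 and an adjusted p of 1.00 in edgeR. *Ccnd2* followed the same order of signs, with 2.60, 1.56 and 3.10 CPM in *Sucnr1* fl/fl against 0.696, 4.28 and 2.40 CPM in Hep-*Sucnr1* KO. It is named for its interaction after the values were seen. Its interaction was 2.42 ± 0.83 (SE), with an unadjusted p of 0.0275, and rested on Hep-*Sucnr1* KO 3 as the single day 1 library of that genotype. In all, 4 of the 34 genes (*Cdk1*, *Aurka*, *Ccnd1* and *Ccnd2*) had an unadjusted interaction p under 0.05, against 3.69% of all genes, and none of the 34 passed the adjustment in edgeR or DESeq2, which called 0% and 0.0265% of all genes. The Kupffer cell and macrophage markers were also lowest in Hep-*Sucnr1* KO 3, at 36.3 CPM, as were the sinusoidal endothelial markers, at 40.7 CPM. In both lists the median genotype difference in log2 CPM had opposite signs on days 1 and 2, -2.15 and 0.46 for the Kupffer cell and macrophage markers and -1.23 and 0.21 for the endothelial markers. An unadjusted interaction p under 0.05 was found for 4 of 10 and 6 of 10 of them, and DESeq2 called 0 and 1. The part of these cells in the values of the cyclins was not tested.

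The arrest genes *Cdkn1a* and *Mdm2* were expressed at high levels in both genotypes. No arrest gene had a genotype difference beyond the spread between mice. *Cdkn1a* stood at 249, 100.3 and 212 CPM in *Sucnr1* fl/fl and at 199.9, 157 and 212 CPM in Hep-*Sucnr1* KO. *Sucnr1* fl/fl 1 was the highest and *Sucnr1* fl/fl 2 the lowest of the 6, so the control range enclosed all Hep-*Sucnr1* KO libraries. Means were 187 ± 77.3 CPM in *Sucnr1* fl/fl against 189.6 ± 29.3 CPM in Hep-*Sucnr1* KO (mean ± SD of 3 mice each). The log2 fold change was 0.06 ± 0.29 (SE), with an interval of -0.64 to 0.76, and turned to -0.25 without *Sucnr1* fl/fl 2.

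*Cdkn1b*, the other CDK inhibitor of the 4, had the largest genotype value among them. It stood at 37.7, 14.9 and 29.0 CPM in *Sucnr1* fl/fl and at 27.4, 15.9 and 28.3 CPM in Hep-*Sucnr1* KO. *Sucnr1* fl/fl 2 was the lowest and *Sucnr1* fl/fl 1 the highest, as for *Cdkn1a*. The log2 fold change was -0.14 ± 0.31 (SE), with an interval of -0.88 to 0.59, and turned to 0.11 without *Sucnr1* fl/fl 3.

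*Mdm2* stood at 328, 232 and 377 CPM in *Sucnr1* fl/fl and at 326, 252 and 348 CPM in Hep-*Sucnr1* KO. In each group 1 day 2 library was the lowest, and the groups overlapped in full, with means of 312 ± 73.9 and 309 ± 50.02 CPM (SD, n = 3 each). Its log2 fold change was -0.02 ± 0.22 (SE), with an interval of -0.53 to 0.50. *Ccng1* varied least of the 4, with 22.0, 20.3 and 20.1 CPM in *Sucnr1* fl/fl against 20.98, 20.4 and 19.5 CPM in Hep-*Sucnr1* KO. Its log2 fold change was -0.04 ± 0.10 (SE), and the interval of -0.28 to 0.20 was the narrowest of the arrest genes. The level of *Trp53*, the gene of p53 itself, was 39.8, 50.5 and 42.2 CPM in *Sucnr1* fl/fl against 45.8, 40.1 and 46.5 CPM in Hep-*Sucnr1* KO.

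A p53 half-site, the 10-base motif that p53 binds in pairs, stood in 3 of 5 windows of arrest genes and in 8.356% of all windows. Genes of this role were listed for arrest and the p53 pathway, so matches were likely beforehand here too. *Cdkn1a* and *Mdm2* are shown, as the most abundant of the 35 genes per kilobase, with the 250 bases before a RefSeq start. These are chr17:29090729-29090978, plus strand, and chr10:117710759-117711008, minus strand. The p53 half-sites, CCAAT boxes and CHR elements are in capitals.
Cdkn1a: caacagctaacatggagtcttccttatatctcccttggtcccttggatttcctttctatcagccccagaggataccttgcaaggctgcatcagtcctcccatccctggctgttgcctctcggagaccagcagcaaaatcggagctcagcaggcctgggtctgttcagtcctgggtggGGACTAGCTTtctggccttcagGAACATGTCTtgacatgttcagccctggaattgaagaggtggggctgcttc
Mdm2: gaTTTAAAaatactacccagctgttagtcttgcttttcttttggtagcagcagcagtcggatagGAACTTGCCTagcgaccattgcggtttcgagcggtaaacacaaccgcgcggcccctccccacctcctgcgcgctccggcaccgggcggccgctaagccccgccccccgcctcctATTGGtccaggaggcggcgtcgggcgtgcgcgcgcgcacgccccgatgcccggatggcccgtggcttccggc
The window of *Cdkn1a* shown holds half-sites at 73 and 51 bases before the start and no other motif searched. Another RefSeq window of *Cdkn1a*, at chr17:29093519-29093818, held none of the motifs searched. That of *Mdm2* holds a half-site at 186 bases, a CCAAT box at 72 bases and a CHR at 248 bases. Sites farther from the start were not searched.

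Extraction day, the other labelled condition, was compared in the same model. Log2 fold changes of day 2 against day 1 were above 0 for 24 of the 34 genes, with a median of 0.23, and for 53.3% of all genes. None of the 34 was called by edgeR, which called 0 of all genes (0%), while DESeq2 called 1 member, *Cdc20*, and 1.52% of all genes. At an unadjusted p under 0.05, 7 members differed, 6 higher and 1 lower on day 2, against 7.49% of all genes, 5.16% higher and 2.33% lower. Every day 2 library stood above both day 1 libraries for 8 of the 34 (8.5% of all genes) and below both for 2 (6.29%). The 12 mitosis genes were all above 0, with a median of 0.91, and the 4 arrest genes all below 0, with a median of -0.26. Day 1 holds 1 library per genotype, one of which is the low library *Sucnr1* fl/fl 1.

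*Cdc20* had the largest day value of the 34 genes. It stood at 0.234 and 0.443 CPM in the day 1 libraries, *Sucnr1* fl/fl 1 and Hep-*Sucnr1* KO 3, and at 1.44, 1.15, 1.36 and 1.52 CPM on day 2. Each day 2 library was above both day 1 libraries, in both genotypes. The log2 fold change was 2.04 ± 0.36 (SE), with an adjusted p of 0.294 in edgeR, of 0.0382 in edgeR without the filter and of 0.00639 in DESeq2. It is described here because DESeq2 called it, a choice made after the values were seen. Without *Sucnr1* fl/fl 1 it was 1.69, and all other libraries left out in turn gave 1.89 to 2.42. Of the other mitosis genes, *Aurkb*, *Birc5*, *Foxm1* and *Mki67* had day values of 1.87 ± 0.59, 1.57 ± 0.54, 1.44 ± 0.45 and 0.91 ± 0.26 (SE), also without overlap of the days. Without *Sucnr1* fl/fl 1 the day values were 1.32 for *Aurkb* and 0.95 for *Birc5*, and without Hep-*Sucnr1* KO 3 they were 3.07 and 2.55.

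Outside mitosis, *Ccnd3* had a day value of 0.52 ± 0.12 (SE), at an adjusted p of 0.462 in edgeR, without overlap of the days. *Rrm2*, singled out after its values were seen, was the only member lower on day 2 at an unadjusted p under 0.05. It stood at 5.43 and 5.85 CPM on day 1 and at 3.88, 3.72, 4.46 and 4.40 CPM on day 2, with a log2 fold change of -0.46 ± 0.16 (SE). Marker genes of other cells also had day values: median log2 fold changes of day 2 against day 1 were 2.06 for the 10 Kupffer cell and macrophage markers, 1.77 for the 6 tested lymphocyte and leukocyte markers and 2.57 for the 3 tested neutrophil markers. They were 1.36 for the 6 tested erythroid markers, 6 of 6 above 0, and -0.71 for the 7 tested stellate cell markers, 7 of 7 below 0 and 3 at an unadjusted p under 0.05. The neutrophil markers summed to 0.962 and 0.854 CPM on day 1 and to between 1.20 and 6.23 CPM on day 2, with 1 to 4 of the 8 at a count of 0 in each library. The share of these cells in the day values of the mitosis genes was not tested.

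**Figure D4:**
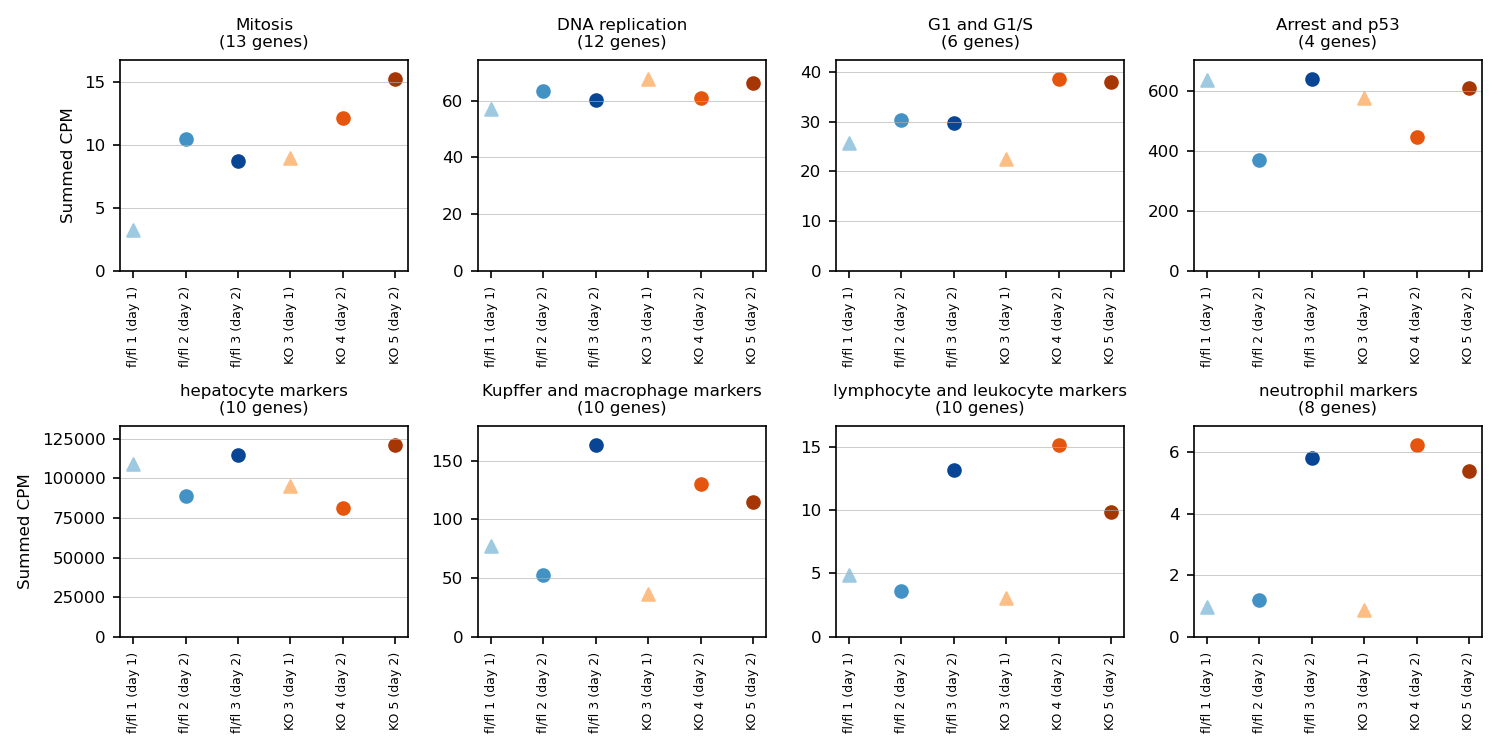
Summed CPM by library (each axis from 0) for the 4 roles in the top row and for hepatocyte, Kupffer cell and macrophage, lymphocyte and leukocyte, and neutrophil markers in the bottom row; colours and symbols are by library, with triangles for day 1. The mitosis sum is lowest in *Sucnr1* fl/fl 1 at 3.28 CPM and highest in Hep-*Sucnr1* KO 5 at 15.2 CPM, and the arrest sum is lowest in *Sucnr1* fl/fl 2 at 367 CPM.

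Within day 2 alone, where each genotype has 2 libraries, the mitosis genes were higher in Hep-*Sucnr1* KO by value, but by less than with all libraries. For genotype, this is nearly the same comparison as leaving out either day 1 library. Differences in log2 CPM between the genotypes had a median of 1.51 over the 12 mitosis genes on day 1 and of 0.44 on day 2, with 12 of 12 above 0 on each day. For replication genes these medians were 0.33 and 0.13, for G1 genes -0.26 and 0.20, and for arrest genes -0.19 and 0.02. Fitted to the day 2 libraries alone, 2 of the 34 genes had an unadjusted p under 0.05 in edgeR, against 2.06% of all genes. They were 1 replication gene and 1 G1 gene, with 0 of the 12 mitosis genes.

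Further genes of the same processes were examined by role. Of 28 other mitosis genes, such as kinesins and centromere proteins, 26 were tested: 22 had log2 fold changes above 0, with a median of 0.66, and 2 had an unadjusted p under 0.05, *Ube2c* at 1.16 ± 0.40 and *Mad2l1* at 0.63 ± 0.23 (SE). *Sucnr1* fl/fl 1 was the lowest library for 23 of the 26, as it was for the 12 members. The largest value in the downward direction was that of *Ccnf*, at -0.16 ± 0.30 (SE). Of 27 other replication genes, 20 were above 0, with a median of 0.20 and none at an unadjusted p under 0.05. They ran from -0.35 for *Mcm10* to 0.97 for *Clspn*, a checkpoint adaptor with 3 to 9 counts per library.

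The other genes of G1 and of the p53 pathway had no such tilt. Of 24 tested genes of G1, CDK inhibitors and the RB-E2F family, 11 were above 0, with a median of -0.03, and *Cdk6*, a kinase partner of the D-type cyclins, had an unadjusted p under 0.05 at -0.25 ± 0.10 (SE). They ran from -0.43 for *Mybl2* to 0.37 for *Cdkn2d*. Of 26 tested genes of the p53 pathway, 12 were above 0, with a median of -0.03, and the DNA polymerase gene *Polk* had an unadjusted p under 0.05 at -0.39 ± 0.14 (SE). They ran from -0.46 for *Eda2r* to 0.98 for *Ckap2*. *Mad2l1*, *Cdk6* and *Polk* are named for their p values, after these were seen. None of the other genes of these processes passed the adjustment in edgeR or DESeq2.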

How the data were processed

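RNA from overnight cultures of primary hepatocytes of 6 mice was sequenced as stranded paired-end mRNA libraries. The authors trimmed reads with Trim Galore 0.6.7, aligned them with STAR 2.7.10a to GRCm38 and summarised them by gene and strand with featureCounts, and the deposited values are raw counts. How multi-mapping pairs were counted is not given in the sources used here, so *Pcna*, *Tyms*, *Ccnb1*, *Ccnb2* and *Ccnd3*, which have annotated pseudogenes, are uncertain to that extent. Symbols, coordinates and exon lengths came from GENCODE M21 (GRCm38), where 25130 of 25184 identifiers had a symbol.

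Genes with a mean DESeq2-normalized count above 5 (15105) were tested with edgeR 4.0.16 (R 4.3.3): TMM factors, quasi-likelihood tests, extraction day and genotype as terms, and Benjamini-Hochberg adjustment at 0.05. DESeq2 1.42.0 was an alternative; it gave no adjusted p for 17 of the 34 tested members, which were left so. A model with an interaction tested whether genotype values differed between days. CPM use TMM factors, log2 CPM a prior count of 2, and RPKM the summed exon length. Intervals and limits at low counts cover 95% and 3 counts. By the series design, the 3 samples of a group are separate mice.

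The members and gene lists were chosen with earlier results of these data known. Genes described by library were the one with the highest CPM and the one with the largest fold change of each role, all arrest genes, *Ccnd1*, *Mki67* and *Top2a*, with others added where the text says so; in other lists, the largest change in each direction was named, with *Trp53* and *Myc*. On simulated counts for the genotype comparison (15105 genes), edgeR called 46% of genes changed by 1 on the log2 scale and 86% of those changed by 2, and DESeq2 65% and 89%. The changed genes were drawn from all genes tested and no day effect was simulated, so these shares need not hold for the members. The common biological coefficient of variation was 0.206. Alternatives were other scalings, filters, models and the omission of single libraries. Promoter windows came from the RefSeq table for GRCm38.p6, which held none for *Ccna2*, *Ccne2*, *Aurkb*, *Ccnd1*, *Foxm1*, *Mcm4* and *Ccnd2*.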

Additional observations from a re-analysis of the deposited data

How the results depend on the processing

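Over 13 alternatives to the genotype test, none of the 34 members was called. DESeq2 could call only members with an adjusted p, which 17 lacked. Of 441 member values, 414 kept their direction, and 27 values, of 8 members, reversed. Mitosis medians lay between 0.47 and 1.19 with single libraries left out. For genotype, the fits without either day 1 library and the fit of day 2 alone are nearly the same fit, not separate checks. At these depths *Mki67*, with 39 to 112 counts, was the only mitosis gene to reach 100 counts in any library. *Top2a* had 18 to 82 counts per library, *Ccnb1* 2 to 18 and *Aurkb* 1 to 19. Such counts limit the precision of the mitosis values. No paired analysis was possible because the genotypes share only replicate number 3, whose libraries were extracted on different days.

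With DESeq2, 7 of all genes were called by genotype, 229 by day and 4 by interaction, with 1 member called by day, 3 members at an unadjusted genotype p under 0.05 and 2 at an interaction p under 0.05. Without the filter, 122 genes and 1 member were called by day, and 11 members had an unadjusted day p under 0.05, against 7 with it. Without the day term 3 members, and with day 2 alone 2 members, had an unadjusted genotype p under 0.05, against 6 with all libraries and the term. With single libraries left out, the members at an unadjusted p under 0.05 numbered 2 to 6 by genotype and 4 to 9 by day; 2 remained without *Sucnr1* fl/fl 1, *Sucnr1* fl/fl 3, Hep-*Sucnr1* KO 3 or Hep-*Sucnr1* KO 5. Genes called by day numbered 0 to 29, with 29 without *Sucnr1* fl/fl 2.

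Log2 fold changes by genotype of the genes that reversed when a library was left out ran from -0.0292 to 0.33 for *Foxm1*, -0.0817 to 0.16 for *Mcm7*, -0.24 to 0.59 for *Cdc6*, -0.0505 to 0.0520 for *Cdt1*, -0.69 to 0.52 for *Ccnd2*, -0.25 to 0.35 for *Cdkn1a*, -0.46 to 0.11 for *Cdkn1b* and -0.19 to 0.21 for *Mdm2*. They ran from -0.46 to 0.0476 for *Ccnf*, -0.88 to 0.28 for *Mybl2*, -0.0963 to 0.56 for *Tgfa*, -0.11 to 0.11 for *Trp53* and -0.24 to 0.0894 for *Myc*. With day 2 alone, reversed values were -0.0817 for *Mcm7*, -0.24 for *Cdc6*, 0.52 for *Ccnd2*, 0.0107 for *Cdkn1b*, 0.0352 for *Ccnf*, -0.0963 for *Tgfa* and -0.11 for *Trp53*. *Cdt1* was -0.00924 with DESeq2, -0.00942 with its size factors, -0.0204 with library size alone and -0.00762 without the filter. *Trp53* was -0.0204, -0.0203, -0.0360 and -0.0188 in the same order, -0.0107 with filterByExpr and -0.000467 without the day term, where *Ccnd2* was 0.0258. The cause of these reversals was not tested.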

Other observations

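A list of 14 genes held growth factors, their receptors, *Myc* family genes and *Max*, *Mxd1*, *Mxd4* and *Mxi1*. Their log2 fold changes by genotype were below 0 for 12 of 14, with a median of -0.19, against 50.5% above 0 for all genes. The 14 genes need not all promote growth, so this count gives no direction for growth signals. None had an unadjusted p under 0.05 in edgeR's quasi-likelihood test or passed the adjustment. *Sucnr1* fl/fl 1 was the highest of the libraries for 7 of the 14. The median genotype difference in log2 CPM was -0.31 on day 1 and -0.10 on day 2. *Hgf*, the growth factor that stellate cells secrete, had the lowest value, at -1.27 ± 0.65 (SE), with 17, 13 and 4 counts in *Sucnr1* fl/fl and 2, 6 and 5 in Hep-*Sucnr1* KO. The 7 tested stellate cell markers, a list that also holds *Hgf*, had a median of -0.45, and their part in this value was not tested. *Tgfa*, a ligand of the EGF receptor that hepatocytes make, stood at 30.4, 43.7 and 31.3 CPM in *Sucnr1* fl/fl and at 60.6, 43.5 and 27.3 CPM in Hep-*Sucnr1* KO, with a log2 fold change of 0.27 ± 0.29 (SE). Its highest and lowest library were both Hep-*Sucnr1* KO.

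*Myc*, which drives cell growth and is induced early after liver injury, was abundant, at 93.2, 134 and 106 CPM in *Sucnr1* fl/fl and 114, 115 and 89.2 CPM in Hep-*Sucnr1* KO. The groups overlapped, with a log2 fold change of -0.06 ± 0.17 (SE). Per kilobase of exon, *Myc* had a mean RPKM of 39.9 and rank 946 of the 15105 genes tested, between *Cdkn1a* at rank 763 and *Pcna* at rank 3801.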
